A study of Mus musculus with 6 samples.

Results

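The 9 genes examined here encode the regulators that start and carry the multiciliated programme: geminin coiled-coil protein (Gmnc) and geminin (Gmnn), the E2F factors E2f4 and E2f5 with their DP partners Tfdp1 and Tfdp2, and the transcription factors Foxn4, Trp73 and Myb. They were taken by symbol from the deposited table of 22851 genes, in which all 9 had a row, and all 9 passed the filter on low counts that left 14243 tested genes. RNA came from radial glial cells of the brains of newborn C57BL/6J mice (postnatal days 0 to 3), which were kept in medium with serum and then without serum for 6 days to form multiciliated ependymal cells. One group of 3 libraries came from wild-type (WT) mice and the other group of 3 from Edf1 knockout mice made with Cas9; both groups shared the strain background and the induction. The labels call the libraries biological replicates without saying how many animals or litters each holds, and they do not describe the edited allele, so p-values measure the spread between these libraries.

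A cell that will carry many cilia has to stop dividing and yet make many centrioles. Gmnc and its relative Mcidas, which lack DNA-binding domains of their own, bind E2F4 or E2F5 together with a DP protein and switch on genes for centriole amplification. Geminin belongs to the same coiled-coil family, binds both proteins and restrains them, and in dividing cells holds the licensing factor Cdt1 in check. The p53 relative p73, Myb, Foxn4 and Foxj1 act with or after this complex, and ependymal cells along the brain ventricles need it to form.

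The 9 genes did not move together. Foxn4, Trp73 and Myb were lower in the knockout by 2.48-fold, 2.09-fold and 2.19-fold. E2f5, Tfdp1 and Tfdp2 differed by at most 1.03-fold, and E2f4 was 1.16-fold lower. Gmnc was 1.13-fold lower and Gmnn 1.14-fold higher, and neither passed the threshold. By edgeR's quasi-likelihood test, with the adjusted p-value held to 0.05, 4 of 9 genes were called lower and 0 higher. Over all tested genes 26.9% were called, 14.2% lower and 12.7% higher. The libraries of the 2 genotypes did not overlap for 5 of 9 genes, 4 lower and 1 (Gmnn) higher, beside 43.3% of all tested genes. The median log2 fold change of the 9 genes was -0.18, and that of all tested genes 0.0029.

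**Figure D1:**
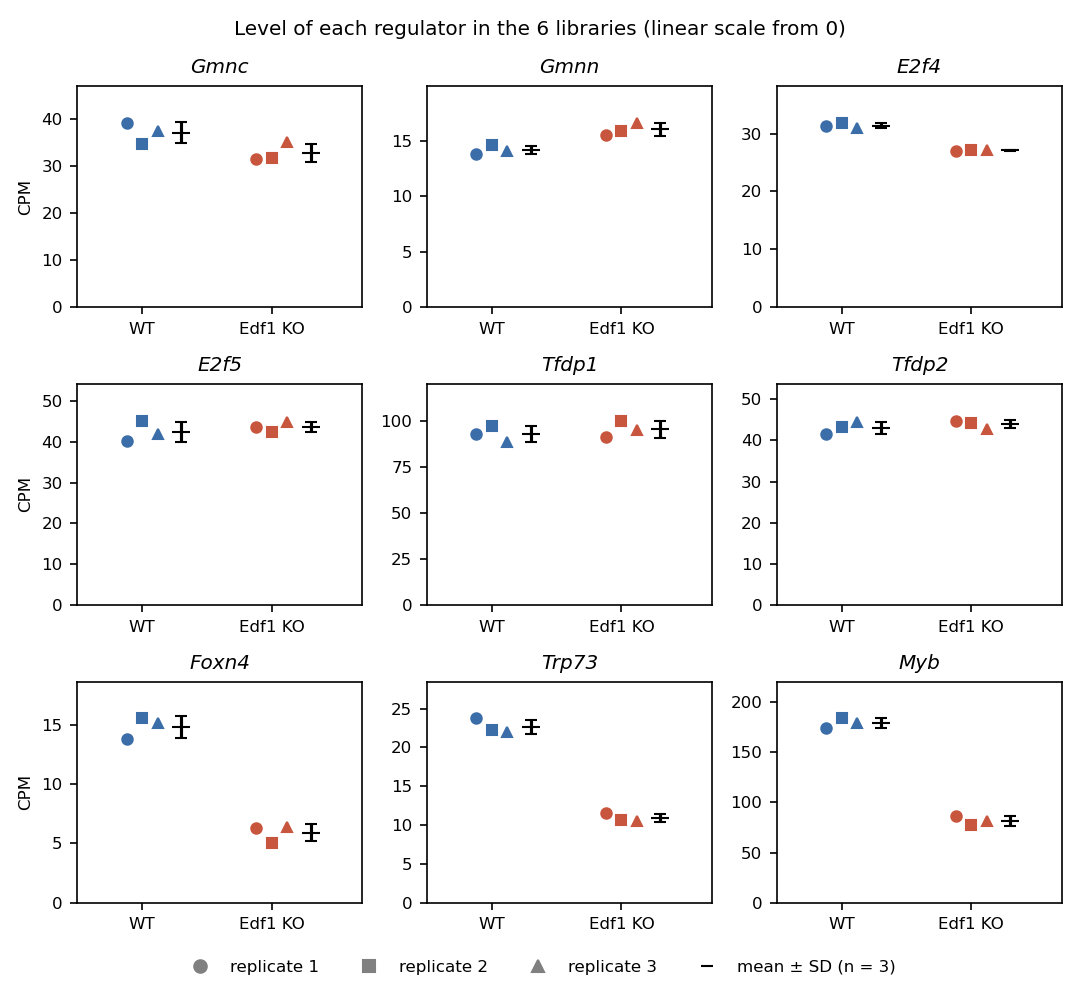
CPM (counts scaled by library size, y axis, linear from 0) of each of the 9 genes in the 3 WT (blue) and 3 Edf1 knockout (red) libraries; symbols mark the replicate, and the black bar gives the mean ± SD (n = 3). Foxn4, Trp73 and Myb sit far lower in all 3 knockout libraries, E2f4 a little lower, Gmnn a little higher, and the other 4 genes overlap.

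Total counts per library ranged from 13071766 to 28087006, with the lowest total in WT replicate 2, the library that also stood apart from the other WT libraries on the second principal component (16.1% of the variance). Edf1 itself, the targeted gene, went from 82.9 ± 2.85 CPM to 11.3 ± 1.72 CPM (SD, n = 3), the direction the labels give. The label of multiciliated ependymal cells was checked with 15 markers of that type, such as Foxj1, Rsph1, Dynlrb2 and Ccdc153. All 15 were detected in both genotypes and all 15 were called lower, beside 14.2% of all tested genes. The largest falls were in Dnah11 (-1.74) and Tmem212 (-1.40). Their summed level was 2503 to 2780 CPM in WT and 1398 to 1500.1 CPM in the knockout. In a bulk sample, fewer ependymal cells and less RNA of these genes per cell cannot be told apart.

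Gmnc stands at the head of the cascade: it is the earliest known gene of the multiciliated fate. It lies on chromosome 16 from 26913553 to 26991652, minus strand (GRCm38, GENCODE M21). The WT replicates 1, 2 and 3 stood at 39.2, 34.7 and 37.4 CPM, against 31.6, 31.7 and 35.1 CPM for the knockout replicates 1, 2 and 3. The groups overlapped, because knockout replicate 3 lay above WT replicate 2. The log2 difference was -0.18 with a 95% interval of -0.34 to -0.016, and edgeR's adjusted p-value was 0.0992. Without WT replicate 2 it was -0.22 with an adjusted p-value of 0.0195 by edgeR, and with offsets for each library's trend in GC content and transcript length it was -0.27 with 0.00477. Its adjusted p-values spanned 0.00477 to 0.314 over the 15 alternative settings. The interval of Gmnc ends well short of the change seen in Myb.

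Geminin, the antagonist within the family, is encoded by Gmnn on chromosome 13 from 24751845 to 24761923, minus strand. In replicate order, the WT libraries stood at 13.8, 14.6 and 14.1 CPM, against 15.5, 15.9 and 16.6 CPM for the knockout libraries. All knockout libraries lay above all WT libraries, by a small margin. The log2 difference was 0.19 (95% interval 0.0017 to 0.37), and the adjusted p-value of 0.127 by edgeR missed the threshold. Only the GC and length offsets brought a call among the alternatives, at 0.31 with an adjusted p-value of 0.0101 by edgeR; adjusted p-values over all alternatives were 0.0101 to 0.314. The log2 ratio of Gmnc to Gmnn within a library was 1.38 ± 0.13 for WT and 1.03 ± 0.041 for the knockout (SD, n = 3), a difference of -0.35, and the groups did not overlap. The exact two-sided permutation test gave p = 0.1, the smallest p that 3 against 3 libraries allow (adjusted p = 0.114 over 8 ratios).

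E2F4 and E2F5 are E2F factors best known as repressors in resting cells, and the multiciliated programme uses them as activators. E2f4 lies on chromosome 8 from 105297663 to 105305370 and E2f5 on chromosome 3 from 14578641 to 14606309, both on the plus strand. E2f4 measured 31.2, 31.8 and 31.01 CPM across the WT replicates, against 26.98, 27.1 and 27.1 CPM across the knockout replicates. The 2 groups were tight and did not overlap. The log2 difference was -0.21 (95% interval -0.36 to -0.064) with an adjusted p-value of 0.0364 by edgeR. This call is the least stable of the 4: it passed in 5 of 15 alternatives, whose adjusted p-values ran from 0.0312 to 0.104, while its direction was the same in all 15. E2f5 measured 40.3, 45.2 and 41.9 CPM across the WT replicates, against 43.6, 42.4 and 44.8 CPM across the knockout replicates, so the groups overlapped. Its log2 difference was 0.045 (95% interval -0.097 to 0.19, adjusted p-value 0.660 by edgeR). The log2 ratio of E2f4 to E2f5 went from -0.44 ± 0.068 in WT to -0.69 ± 0.039 in the knockout (SD, n = 3), with no overlap between the groups (difference -0.25; exact permutation p = 0.1, adjusted 0.114).

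The DP proteins dimerise with E2F factors and are needed for tight DNA binding. Tfdp1 (chromosome 8, 13338751 to 13378448, plus strand) measured 93.2, 97.1 and 88.5 CPM across the WT replicates, against 91.2, 100.2 and 95.2 CPM across the knockout replicates. Tfdp2 (chromosome 9, 96196275 to 96323646, plus strand) measured 41.5, 43.3 and 44.4 CPM, against 44.8, 44.2 and 42.8 CPM. Both genes overlapped between the genotypes. The 95% intervals of the log2 difference were -0.088 to 0.17 for Tfdp1 and -0.10 to 0.16 for Tfdp2, with adjusted p-values of 0.653 and 0.758 by edgeR. Of the 31-base words in Tfdp1 transcripts, 21.7% also occur in the transcript of Gm7390, so part of its reads could be assigned elsewhere. The log2 ratio of Tfdp1 to Tfdp2 differed by 0.0102 between genotypes (exact permutation p = 0.7), and its sign changed when single libraries were left out.

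Foxn4, a forkhead factor known from multiciliated cells and from retinal and spinal progenitors, had the largest fold change of the 9 genes. It lies on chromosome 5 from 114254164 to 114273807, minus strand. Its WT replicates stood at 13.8, 15.5 and 15.1 CPM, against 6.27, 5.07 and 6.37 CPM for its knockout replicates. The 2 groups were widely separated. The raw counts behind these values were modest, 200 to 366 per WT library and 91 to 180 per knockout library. Its log2 fold change of -1.31 had an SE of 0.12, with an adjusted p-value of 6.39e-06 by edgeR, and the knockout mean was 39.8% of that of WT.

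Trp73 encodes p73, a p53 relative without which multiciliated cells of the airway and brain ventricles fail to form. The 2 RefSeq start sites used here lie far apart on chromosome 4, within 154056253 to 154140208, minus strand. The internal start, in intron 3 of the GENCODE transcript with the most exons, gives the shorter protein that lacks the activation domain, and the counts per gene do not separate the 2 forms. Trp73 measured 23.7, 22.2 and 21.99 CPM across the WT replicates, against 11.6, 10.7 and 10.5 CPM across the knockout replicates. The gap between the groups was many times the spread within either. Its log2 fold change of -1.06 had an SE of 0.086, and edgeR's adjusted p-value was 2.75e-06. Exons of the antisense gene Trp73os cover 280 bases, 5.06%, of its exons, and how the counting treated strand is not given in the sources used here.

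Myb, a transcription factor that drives S-phase-like genes in early multiciliated cells and in blood progenitors, lies on chromosome 10 from 21124935 to 21160984, minus strand. The WT replicates stood at 173.4, 183.4 and 179.01 CPM, against 86.5, 76.96 and 81.2 CPM for the knockout replicates. All knockout libraries lay far below all WT libraries. Its log2 fold change of -1.13 had the smallest SE of the 9 genes, 0.057, and edgeR's adjusted p-value was 1.25e-07. Exons of Gm26577 on the other strand cover 559 bases, 6.26%, of its exons. Foxn4, Trp73 and Myb passed the threshold in all 15 alternatives, with log2 fold changes of -1.38 to -1.22, -1.14 to -1.02 and -1.17 to -1.09. Calls lower by at least 1 on the log2 scale made up 1.69% of all tested genes.

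Start-site sequences of the genes that fell together are shown beside 2 that did not pass the threshold. RefSeq windows (GRCm38.p6) of 250 bases before to 50 bases after a start were present for 6 of the 9 genes: Gmnc, Tfdp1, Tfdp2, Foxn4, Trp73 and Myb. Each sequence is given 5' to 3' on the gene's own strand (here minus for all but Tfdp1), and capitals mark E2F words. The windows are chr4:154139826-154140125 for the upstream start of Trp73, chr10:21160935-21161234 for Myb, chr5:114273712-114274011 for Foxn4, chr16:26991603-26991902 for the upstream start of Gmnc and chr8:13338501-13338800 for Tfdp1.
Trp73: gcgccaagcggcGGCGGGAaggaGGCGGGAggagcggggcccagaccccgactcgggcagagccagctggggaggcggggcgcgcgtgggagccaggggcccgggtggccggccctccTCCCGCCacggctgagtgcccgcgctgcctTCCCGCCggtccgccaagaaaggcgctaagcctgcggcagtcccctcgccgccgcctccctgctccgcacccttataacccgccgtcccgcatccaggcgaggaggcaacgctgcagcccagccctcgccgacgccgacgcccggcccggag
Myb: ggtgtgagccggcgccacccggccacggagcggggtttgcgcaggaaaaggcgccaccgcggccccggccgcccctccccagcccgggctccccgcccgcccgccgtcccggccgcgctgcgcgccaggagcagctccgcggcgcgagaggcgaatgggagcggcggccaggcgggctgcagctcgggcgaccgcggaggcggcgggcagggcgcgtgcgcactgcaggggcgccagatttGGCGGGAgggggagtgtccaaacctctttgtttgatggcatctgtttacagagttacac
Foxn4: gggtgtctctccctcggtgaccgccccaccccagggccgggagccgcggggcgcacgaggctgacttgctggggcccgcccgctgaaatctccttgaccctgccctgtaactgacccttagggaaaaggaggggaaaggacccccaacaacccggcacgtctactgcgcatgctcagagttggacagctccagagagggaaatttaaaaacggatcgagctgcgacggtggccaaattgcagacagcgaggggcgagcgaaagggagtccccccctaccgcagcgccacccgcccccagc
Gmnc: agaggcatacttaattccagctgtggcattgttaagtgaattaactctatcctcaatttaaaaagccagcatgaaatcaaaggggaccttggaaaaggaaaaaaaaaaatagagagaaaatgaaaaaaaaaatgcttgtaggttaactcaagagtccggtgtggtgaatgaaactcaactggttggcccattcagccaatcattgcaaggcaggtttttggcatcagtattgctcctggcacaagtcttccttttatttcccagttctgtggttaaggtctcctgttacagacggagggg
Tfdp1: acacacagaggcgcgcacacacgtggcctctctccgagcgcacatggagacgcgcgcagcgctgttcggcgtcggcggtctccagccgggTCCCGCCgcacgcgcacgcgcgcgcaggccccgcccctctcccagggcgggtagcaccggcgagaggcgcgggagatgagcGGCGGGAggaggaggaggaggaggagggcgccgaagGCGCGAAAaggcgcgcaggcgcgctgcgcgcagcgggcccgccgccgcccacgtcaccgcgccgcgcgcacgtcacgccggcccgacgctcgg

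The E2F words searched on both strands were the E2F core GGCGGGA and the longer E2F consensus words TTTCCCGC, TTTCGCGC, TTTGCCGC and TTTGGCGC. The core can overlap GC boxes, since both are runs of G and C. The upstream Trp73 window held 4 copies of the core and the Myb window 1, which begins 9 bases before the start. The Foxn4 window, both Gmnc windows, both Tfdp2 windows and the internal Trp73 window held none of these words. The window of Tfdp1, which did not pass the threshold, held 2 copies of the core and 1 consensus word. Of all 32851 windows, 11.3% held the core and 2.26% a consensus word. The CCAAT box and the words TTTGAA and TTCGAA were also searched. A CCAAT box was held by 37.4% of all windows and TTTGAA or TTCGAA by 19.2%. Among the windows of these genes the only such word was 1 CCAAT box, which begins 55 bases before the upstream Gmnc start. The printed windows of Trp73 and Tfdp1 were 77.7% and 78.0% G and C, against a median of 52.7% over all windows and 40.7% for Gmnc. The E2F words were present in windows of Trp73, Myb and Tfdp1, and absent from that of Foxn4, the gene with the largest fall. Whether these words bear on the falls was not tested, and Gmnn, E2f4 and E2f5 had no window.

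Ratios within a library set Mcidas, Foxn4, Trp73 and Myb against Gmnc. Mcidas, the geminin relative that acts after Gmnc, had more counts than Gmnc in each WT library and fewer in each knockout library. The log2 ratio Mcidas to Gmnc was 0.28, 0.37 and 0.38 across the WT replicates and -0.52, -0.62 and -0.69 across the knockout replicates (difference -0.95). For Foxn4, Trp73 and Myb against Gmnc the differences were -1.14, -0.87 and -0.95. Myb also fell relative to Foxj1, the master factor for motile cilia genes, with a log2 ratio of -2.14 ± 0.054 in WT and -2.68 ± 0.089 in the knockout (SD, n = 3; difference -0.54). In all of these 5 ratios the groups did not overlap, and each exact permutation test reached its smallest p of 0.1 (adjusted p = 0.114 over 8 ratios), which cannot pass 0.05. These are ratios of CPM, so their change and not their size compares the genes.

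**Figure D2:**
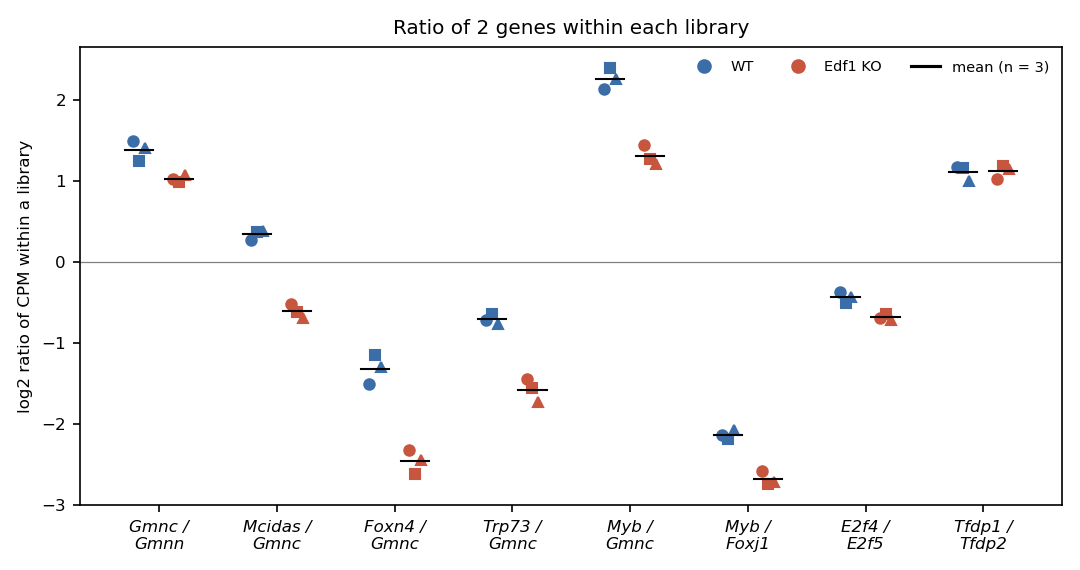
Log2 ratio of the CPM of 2 genes within a library (y axis) for 8 gene pairs (x axis), in WT (blue) and Edf1 knockout (red); symbols mark the replicate and lines the mean (n = 3). The 3 knockout libraries lie below the 3 WT libraries in 7 of the pairs, and Tfdp1 to Tfdp2 overlaps.

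The partners of these regulators were described from a list of 9 multiciliation genes. Of these, 8 of 9 were called lower and 0 higher, beside 14.2% and 12.7% of all tested genes. Their median log2 fold change was -0.97. Mcidas went from 47.1 ± 1.86 to 21.5 ± 0.76 CPM (SD, n = 3). Its neighbours Ccno, a cyclin-like protein needed for centriole number, and Cdc20b had log2 fold changes of -1.25 and -1.09. Deup1, the scaffold of the deuterosomes that spawn centrioles, had -1.27, its partner Ccdc78 -0.97 and the centriole kinase Plk4 -0.83. Foxj1 had -0.59 and Rfx2, a factor for cilia genes, -0.24. Rfx3 had 0.0020 with a 95% interval of -0.28 to 0.29 (adjusted p-value 0.992 by edgeR) and changed sign in 4 of 15 alternatives. Rfx2 lost its call without knockout replicate 2 or knockout replicate 3, where its adjusted p-values by edgeR reached 0.0703. The adjusted p-values of the 8 called genes were at most 0.0128 by edgeR. Beside these, Myb had -1.13, Trp73 -1.06 and Foxn4 -1.31, while Gmnc had -0.18 and E2f4 -0.21.

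**Figure D3:**
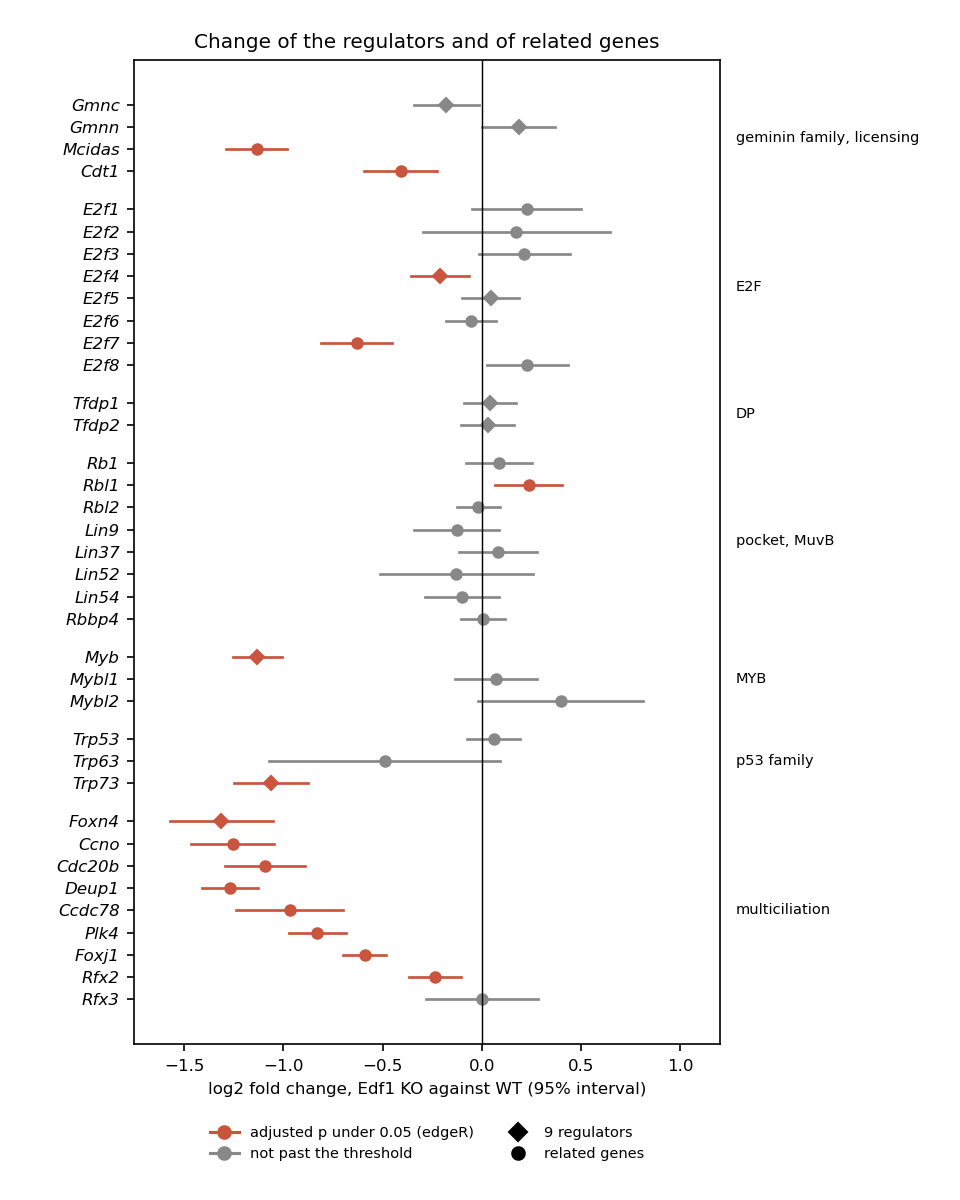
Log2 fold change of Edf1 knockout against WT with its 95% interval (x axis) for the 9 regulators (diamonds) and related genes (circles), grouped by family; red marks an adjusted p-value under 0.05 by edgeR. Past the threshold are Mcidas and Cdt1 in the geminin group, E2f4 and E2f7 among the E2F genes, and Rbl1, Myb and Trp73. In the multiciliation group, which holds Foxn4, all but Rfx3 are past it.

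The levels were also set beside the summed ependymal markers, which in the knockout stood at 55.6% of WT. This measure was chosen after the values were seen and has no test, and Foxj1 alone made up 30.1% of the sum in WT and 36.01% in the knockout. The markers belong to the multiciliated programme themselves and all 15 were called lower, so their sum is not a separate measure of cell number. Myb was 6.59% to 7.15% of the marker sum in WT and 5.41% to 5.92% in the knockout. For Foxn4 the ranges were 0.539% to 0.604% and 0.362% to 0.429%, and for Trp73 0.799% to 0.928% and 0.701% to 0.791%. The ranges did not overlap with this sum, but for Trp73 the gap was narrow and rested on Foxj1, which fell less than most of the markers. Without Foxj1, an alternative chosen after seeing the data, the ranges of Trp73 overlapped, at 1.14% to 1.33% in WT and 1.09% to 1.23% in the knockout, while those of Myb (9.44% to 10.3% and 8.41% to 9.17%) and Foxn4 (0.770% to 0.867% and 0.575% to 0.665%) did not. Their partners Mcidas, Ccno and Deup1 stood at 81.7%, 75.3% and 74.5% of WT per marker sum, beside 82.02% for Myb, 86.6% for Trp73 and 71.5% for Foxn4. Single markers fell as much as these regulators or more, among them Dnah11 (-1.74), Tmem212 (-1.40) and Ccdc153 (-1.37) on the log2 scale. Gmnc was 1.25% to 1.53% of the full sum in WT and 2.17% to 2.34% in the knockout, since the markers fell by more than its own difference.

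Other members of the same families were then compared. Of 6 further E2F genes 1 was called lower and 0 higher, with a median of 0.19 on the log2 scale. Over all tested genes 14.2% were called lower and 12.7% higher, so 1 call in so small a list is near that share. The called gene was E2f7, an atypical E2F that represses E2F targets, at 31.97, 28.3 and 28.3 CPM across the WT replicates and 18.8, 18.4 and 20.2 CPM across the knockout replicates. Its log2 fold change was -0.63, with an adjusted p-value of 0.000117 by edgeR, and it passed in all 15 alternatives. The activators E2f1, E2f2 and E2f3 had 0.23, 0.17 and 0.21, E2f8, the closest relative of E2f7, had 0.23 and E2f6 had -0.054, none past the threshold, although E2f1 passed without WT replicate 1 (0.41, adjusted p-value 0.0360 by edgeR). E2f7 and E2f8 lay on opposite sides of 0, with 95% intervals of -0.81 to -0.45 and 0.025 to 0.44 that do not meet. E2f8 did not pass the threshold, however, and the difference between these genes was not tested. The products of the 8 pocket protein and MuvB genes hold E2F targets silent in resting cells. Of these 8, only Rbl1, which encodes p107, was called, at 0.24 (adjusted p-value 0.0429 by edgeR). That call was higher, beside 12.7% of all tested genes. Rbl1 passed in 7 of 15 alternatives; it lost its call, among others, without any 1 of WT replicates 1, 2 and 3 or knockout replicates 1 and 2, with adjusted p-values by edgeR of up to 0.155. Rb1 had 0.086 and Rbl2, the partner of E2F4 in resting cells, -0.017 with a 95% interval of -0.13 to 0.092. The MuvB genes Lin9, Lin37, Lin52, Lin54 and Rbbp4 had values between -0.13 and 0.080, and Lin52 was called without WT replicate 2, at -0.31 (adjusted p-value 0.0398 by edgeR).

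Among the MYB and p53 relatives, 0 of 4 genes were called, beside 26.9% of all tested genes. Mybl1 had 0.072 (95% interval -0.14 to 0.28) and Mybl2, the MYB gene of dividing cells, 0.40 (95% interval -0.017 to 0.81), which passed only without WT replicate 1 (0.65, adjusted p-value 0.0378 by edgeR). Trp53 had 0.059 with a 95% interval of -0.074 to 0.19. Trp63 was barely expressed, at 1.67 ± 0.30 CPM for WT and 1.23 ± 0.20 CPM for the knockout (SD, n = 3), with an adjusted p-value of 0.203 by edgeR. The intervals of Myb and Trp73 did not meet those of Mybl1, Mybl2 and Trp53, but that of Trp63 (-1.07 to 0.094) met both; the differences between the genes were not tested.

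Cdt1, the licensing factor that geminin blocks, fell from 29.6 ± 2.98 to 22.2 ± 0.42 CPM (log2 scale -0.41, with an adjusted p-value of 0.00350 by edgeR). It was one of 2 genes called lower in a list of 30 S-phase genes known as E2F targets, the other being the chromatin assembly factor Chaf1a at -0.40. In that list 13 of 30 were called higher and 2 lower, beside 12.7% and 14.2% of all tested genes, and the median was 0.17. The largest rises were Mcm10 at 0.83, from 4.14 ± 0.28 to 7.46 ± 0.90 CPM, and the replication licensing gene Cdc6 at 0.78, from 2.70 ± 0.69 to 4.72 ± 0.33 CPM (SD, n = 3). Adjusted p-values of these 2 rises were 0.00125 and 0.0107 by edgeR. Cdt1 therefore moved against the direction of most called genes of the list.

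Mitotic genes were split. Of 20, 6 were called higher and 6 lower, beside 12.7% and 14.2% of all tested genes, with a median of 0.12. The proliferation marker Mki67 rose most, from 54.2 ± 9.11 to 106.7 ± 10.9 CPM (log2 fold change 0.97), followed by the cyclin Ccna2 at 0.68. The kinase Aurka fell most, at -0.58, followed by the anaphase activator Cdc20 at -0.52, and Cdk1, the mitotic kinase, had -0.47. The adjusted p-values of these 5 genes were at most 0.00152 by edgeR. Also called were Birc5, Foxm1, Aurkb and Nusap1 higher and Ccnb1, Plk1 and Top2a lower.

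**Figure D4:**
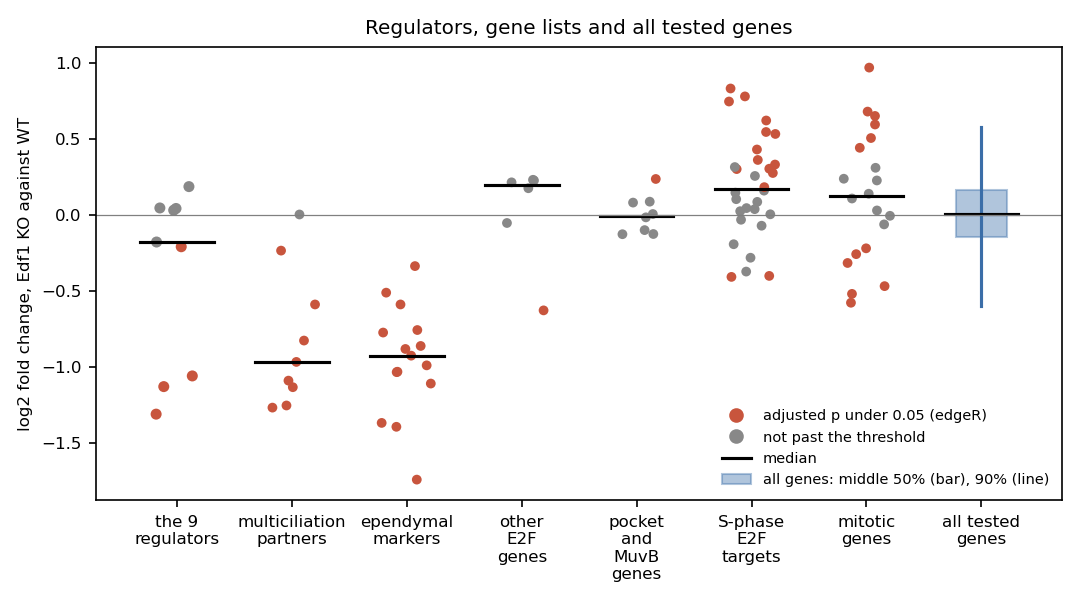
Log2 fold change of Edf1 knockout against WT (y axis) for the tested genes of each list (points; red, adjusted p-value under 0.05 by edgeR; black line, median) beside all 14243 tested genes (bar, middle 50%, from -0.15 to 0.16; line, middle 90%, from -0.60 to 0.58). Multiciliation partners and ependymal markers lie almost wholly below 0, S-phase genes mostly above, and mitotic genes on both sides.

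Levels of the 9 genes can be compared with one another only per length. On TPM, which scales counts for exon length and depth (here the union of annotated exons), Tfdp1 (92.999 ± 2.18), E2f5 (87.5 ± 2.61) and Myb (73.5 ± 1.68) were highest in WT, followed by E2f4 (47.003 ± 1.04), Gmnn (35.6 ± 0.58) and Gmnc (23.8 ± 2.21). Foxn4 (16.1 ± 0.80), Trp73 (15.05 ± 0.94) and Tfdp2 (11.3 ± 0.54) were lowest (SD, n = 3). Only the neighbours Foxn4 and Trp73 overlapped in that order. In the knockout Myb (35.02 ± 2.26) dropped behind E2f4 (42.4 ± 0.24) and Gmnn (41.98 ± 1.47), which overlapped with each other, as did Tfdp1 and E2f5, and Foxn4 (6.72 ± 0.86) and Trp73 (7.57 ± 0.42) fell behind Tfdp2 (12.01 ± 0.29). With the length of the longest transcript in place of the exon union, Myb ranked first in WT and behind Tfdp1 and E2f5 in the knockout, and Tfdp2 already stood above Foxn4 and Trp73 in WT, so the places of Myb and Tfdp2 depend on the gene model.

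The genes most like these regulators were sought by the root mean square difference in centred log2 CPM over the 6 libraries, among 12889 genes with a mean log2 CPM of at least 1. For Myb they were Efhc2 (0.032), Plvap (0.037) and Dnah1 (0.042). Trp73 lay nearest to Efcab10 (0.045), Esyt2 (0.052) and Cacng4 (0.059), and Foxn4 to Tctex1d4 (0.069), Lrrc43 (0.079) and Deup1 (0.081). Gmnc lay nearest to Naf1 (0.035), Tdrkh (0.036) and Sart3 (0.036). Within the 9 genes, Myb and Trp73 were 0.076 apart and Myb and Foxn4 0.12, whereas Gmnc was 0.079 from E2f4 and 0.49 from Myb. Over 6 libraries in 2 genotypes such a distance mainly reflects the size of the difference between genotypes.

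Other cell types were examined by their markers. Myb is known from blood progenitors, for which no marker list was used, and microglia do not stand in for them. Of the microglia genes 13 of 15 tested were called lower, among them Gpr34 (-1.78) and P2ry12 (-1.35), beside 14.2% of all tested genes. The summed microglia level was 2496 to 2663 CPM in WT and 1625 to 1694 CPM in the knockout. Ptprc, which marks all white blood cells, was 54.5 ± 2.88 and 54.7 ± 5.47 CPM (SD, n = 3). Trp73 is known from Cajal-Retzius neurons. Of 8 markers of these neurons, Lhx5 and Nhlh2 had 0 counts in every library, and Lhx1 and Ebf3 had at most 3. Reln, another of the 8, was detected, with mean CPM of 23.9 (WT) and 19.1 (knockout). Reln (-0.33) and Calb2 (-1.16) were called lower and Cacna2d2 higher (0.51), with a summed level of 27.4 to 32.5 CPM in WT and 23.1 to 26.5 CPM in the knockout.

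Fibroblast, mural and endothelial genes were called higher in 9 of 11 tested, led by Kdr (1.73) and Dcn (1.25), and lower in 1, Flt1 (-1.58). Over all tested genes 12.7% were called higher and 14.2% lower, and these shares are the background for every list in this paragraph. The summed level of this list was 905 to 959 CPM in WT and 1185 to 1308 CPM in the knockout. The mural and endothelial markers Rgs5, Vtn, Pecam1, Cdh5 and Cldn5 were too low to be tested. Mean CPM in WT and knockout was 0.39 and 0.27 for Rgs5 and 0.64 and 0.41 for Vtn. For Pecam1 it was 0.21 and 0.14, and for Cdh5 0.22 and 0.80, with Cldn5 at or under 3 counts in every library. Choroid plexus epithelium is also multiciliated; 1 of 7 tested genes was called higher, Otx2 (0.68), and 1 lower, Enpp2 (-0.63), and the summed level of 125.01 to 155.6 CPM in WT overlapped that of 131.9 to 155.9 CPM in the knockout. Neuron genes were called lower in 2 of 9 tested, Dcx (-1.61) and Tubb3 (-0.81), beside 14.2% of all tested genes. Dcx lay close to the floor, at 10 to 20 counts per WT library and 4 to 7 per knockout library. The summed neuron level was 255 to 332 CPM (WT) against 277 to 292 CPM (knockout). Most of it came from Map2, with means of 259.7 (WT) and 242.4 (knockout). Snap25, Gad2, Slc17a6 and Slc17a7 were too low to be tested, so this sum says little about neurons as a whole. Oligodendrocyte lineage genes were called in 2 of 8 tested, Cspg4 higher (0.38) and Cnp lower (-0.25), beside 26.9% of all tested genes. Their summed level was 453 to 492 CPM (WT) against 423 to 441 CPM (knockout). Most of it came from Cnp, with means of 350.3 (WT) and 295.1 (knockout). Sox10, Mog and Gpr17 were too low to be tested, so this sum says little about the lineage as a whole. The pituitary hormone gene Prl had 0 counts throughout the WT libraries, against 198, 175 and 131 for knockout replicates 1, 2 and 3, and of 4 tested pituitary genes 3 were called higher (Prl, Cga and Pomc) and 1 lower (Lhb). The part of these cells in the values of the 9 regulators was not tested.

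Removing WT replicate 2 left 5 of 9 regulators called lower, Gmnc, E2f4, Foxn4, Trp73 and Myb, beside 30.1% of all genes tested in that fit. With the GC and length offsets, Gmnc and Gmnn were both called, in opposite directions, E2f4 was not called at -0.16 (adjusted p-value 0.0742 by edgeR), and Tfdp2 turned to -0.062 without passing. In that fit 31.4% of all genes were called.

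**Figure D5:**
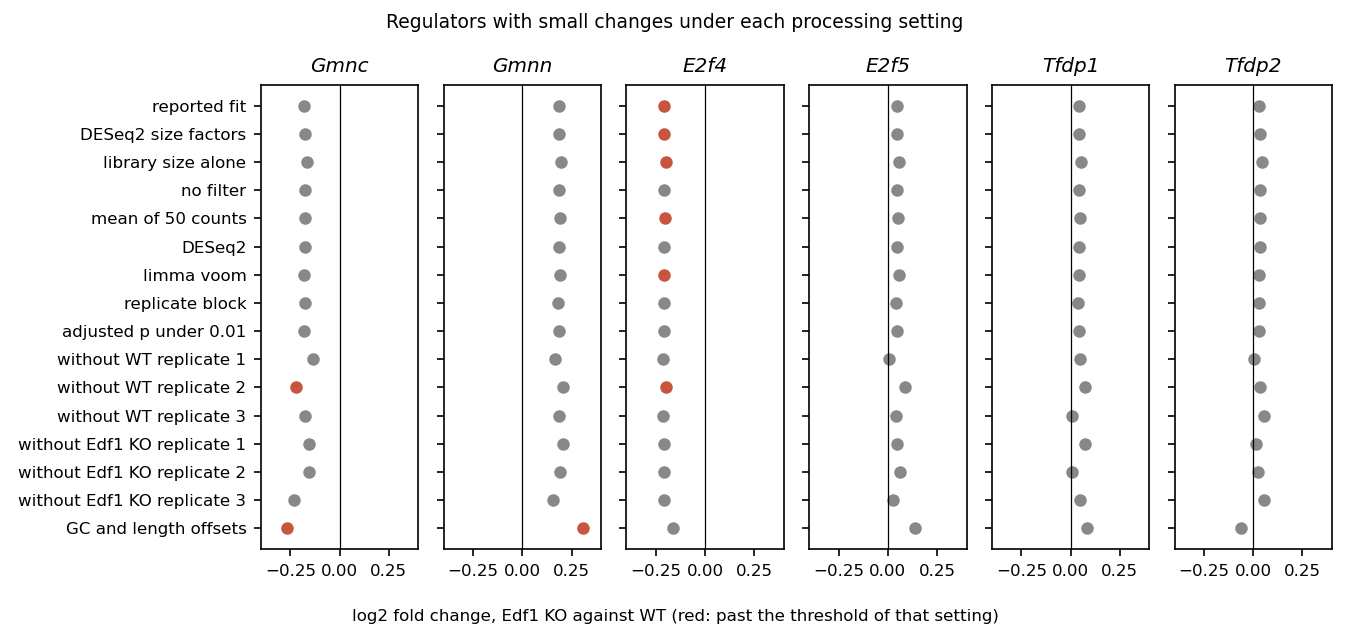
Log2 fold change of Edf1 knockout against WT (x axis) of the 6 regulators with small changes, in the reported fit and under 15 processing settings (y axis); red marks values past the threshold of that setting. Gmnc and E2f4 stay below 0 and Gmnn above 0 in every setting, and each of the 3 is past the threshold in some settings and not in others.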

How the data were processed

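In the deposited table each gene symbol has unnormalized read counts, 1 column per library, with no pooling. Per the submitters' processing notes, the tools named were FastQC 0.11.2, cutadapt 1.11 and HISAT2 2.1.0, with the build GRCm38; per the labels' protocols, RNA was extracted with TRIzol and libraries made with an MGIEasy mRNA kit. The counting program, annotation, strand setting and handling of multi-mapping reads are not given in the sources used here. Each column was matched to its sample by genotype and replicate number; 0 columns were left unused and 0 rows named no gene.

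Counts were filtered with filterByExpr and scaled by TMM factors (0.985 to 1.01), and the 2 genotypes were compared with the quasi-likelihood test of edgeR 4.0.16 in R 4.3.3, without covariates, on all 6 libraries and 14243 genes; p-values were adjusted by Benjamini-Hochberg over all of them, with a threshold of 0.05. Standard errors are the log2 fold change over the square root of F, and 95% intervals use its degrees of freedom. Log2 CPM used a prior count of 2, and at most 3 counts in a library was taken as the floor, which covers counting error only. TPM and gene positions used GENCODE M21 (GRCm38). Ratios of 2 genes were tested by exact two-sided permutation over the libraries. Alternatives were DESeq2 size factors, library size alone, other filters, DESeq2 1.42.0, limma voom (limma 3.58.1), the replicate number as a block, a threshold of 0.01, each library left out, and offsets for GC content and length (natural splines with 4 degrees of freedom, 97.7% of tested genes matched by symbol). The fits were tested on simulated data.

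The 9 genes, the gene lists, the ratios and the alternatives were chosen with earlier results of these data known. Named besides the 9 genes are all members of the geminin, E2F, pocket protein, MYB, p53 and multiciliation lists, up to 2 called members with the largest rise and 2 with the largest fall in the other lists, markers at 0, and the 3 nearest patterns of 4 regulators. Other names, including Rsph1, Dynlrb2, Ccdc153, Ptprc, Cdk1, Plk1, Ccnb1, Top2a, Birc5, Foxm1, Aurkb, Nusap1, Cacna2d2, Lhb, Cga and Pomc, were chosen after the values were seen. Same-numbered libraries of the 2 genotypes were treated as unpaired, since the labels give the numbers no meaning and the correlations of their deviations were under 0.1.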

Additional observations from a re-analysis of the deposited data

How the results depend on the processing

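Foxn4, Trp73 and Myb were called lower in all 15 alternatives, and E2f5, Tfdp1 and Tfdp2 in none. The count of changed genes went from 3833 to 2213 with a threshold of 0.01; leaving out 1 library gave 2658 to 4340. E2f4 lost its call without a filter (-0.209, adjusted p-value 0.0524 by edgeR), under DESeq2 (-0.208, 0.0802), with the replicate number as a block (-0.211, 0.0536 by edgeR), with the threshold of 0.01 (-0.210) and with GC and length offsets (-0.162, 0.0742 by edgeR). Leaving out 1 library gave E2f4 values of -0.216 to -0.201, and the call held only without WT replicate 2. GC and length offsets brought calls for Gmnc (-0.267) and Gmnn (0.307), and Tfdp2 turned to -0.0615. Gmnc ran from -0.230 to -0.134 with 1 library left out and was called without WT replicate 2. The log2 ratio of Tfdp1 to Tfdp2 ran from -0.0467 to 0.0572 over the same omissions. Uncalled relatives near 0 also turned. With GC and length offsets Rbbp4 was at -0.0339, Mybl1 at -0.0539 and Rfx3 at -0.147; with 1 library left out, Rb1 ran from -0.00217 to 0.157, Rbl2 from -0.0427 to 0.00275, Lin52 from -0.309 to 0.0631, Mybl1 from -0.0222 to 0.154, Rbbp4 from -0.0250 to 0.0440 and Rfx3 from -0.141 to 0.1501. The cause was not tested, beyond the smaller number of libraries and the stricter threshold that some settings have by construction. Of 330 values of gene lists recomputed, 282 stayed within the spread between replicates or 1.5 times, and 48 moved. Taking Foxj1 out of the marker sum, added after seeing the data, moved the log2 difference per sum of Myb from -0.29 to -0.16, of Foxn4 from -0.49 to -0.36 and of Trp73 from -0.21 to -0.080.

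With the replicate block, 4065 genes were called, 3683 of which were also called without it, and E2f4 was the one regulator whose call changed. The deviations of same-numbered libraries correlated at 0.069, 0.060 and 0.037 for replicates 1, 2 and 3, under the 0.1 taken to show pairing, although all 6 libraries correlated best with their own number, a hint from the data and not from the design. Depth limits Foxn4 most, at 91 to 366 counts a library.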
